A study of Mus musculus with 2 samples.

Results

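The tumour necrosis factor (TNF) superfamily was described across the 2 libraries of the series. Its members were taken as every protein-coding gene whose GENCODE M21 symbol begins with Tnfrsf (receptors) or Tnfsf (ligands), together with 13 relatives that carry older names, such as Tnf, Ltbr, Cd70 and Edar. This rule gave 45 genes, 26 receptors and 19 ligands, of 54438 genes with listed transcripts. The death receptor gene Fas and the receptor gene Relt fall outside the rule by their symbols and are given below with the pathway genes. Both libraries were made from sorted cells that carry the label of mammary basal cells, which form the outer epithelial layer of the gland; the mice were C57BL/6 wild types aged 8 weeks. The libraries were prepared with a Smart-seq reagent. The study contrasts basal cells by surface Pd-l1, but apart from the titles W1 and W2 the labels are identical, so neither library could be placed in a Pd-l1 class. Each library is therefore described on its own. No replicate exists, no test was made and no p-value is given.

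TNF superfamily ligands are mostly trimeric membrane proteins that can be cleaved from the cell surface, and their receptors pass the signal on through adaptors of the Traf family or, in receptors with a death domain, through Tradd and Fadd. The outcomes include NF-kB activation, survival, costimulation of lymphocytes and cell death. In the mammary gland the family is best known for RANK ligand, which luminal cells make under progesterone and which acts on RANK-bearing epithelial cells, and for ectodysplasin signalling, which shapes the gland early in development.

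Counted reads came to 3055836 for W1 and 3800023 for W2. Of 15 markers that define the labelled cell type, 7 had 0 reads in W1 and 2 in W2. Basal markers summed to 213 TPM (transcript abundance scaled to a fixed library total) in W1 against 37571 TPM in W2, and Krt5 and Cnn1 had 0 reads in library W1. Endothelial markers summed to 5014 TPM in W1 against 8.29 TPM in W2, and all 11 compared members of that list of 15 were higher in library W1. Leukocyte markers summed to 172 and 7.17 TPM, and 5 of 6 compared members of a list of 20 were higher in library W1. Cd53 (54.4 TPM), Lyz2 (46.6 TPM), Cd79a (32.8 TPM) and Cd52 (21.2 TPM) were read in W1 and at 0 in W2, while 10 of the 20 had 0 reads in W1 and the pan-leukocyte gene Ptprc was at 0.345 TPM there. Lymphatic endothelial markers summed to 13178 and 8078 TPM, with 4 of 7 compared genes higher in W1 and 1 in W2. Ccl21a (7543 TPM) and Pdpn (531 TPM) made up nearly all of the sum in W2, where 6 of the 9 markers were at 0, among them Lyve1 (2408 TPM in W1), Prox1 (75.3 TPM) and Flt4 (40.5 TPM). Luminal markers summed to 49.1 and 4709 TPM, and fibroblast markers to 3.19 and 206 TPM. Of 10 compared luminal genes in a list of 15, 8 were higher in W2 and 1, Kit, in W1 (25.5 and 0 TPM). All 6 compared fibroblast genes in a list of 9 were higher in W2. In these lists 4 luminal and 3 fibroblast genes had 0 reads in both libraries. These marker levels move with every difference given below, and their part in those differences was not tested. In such bulk libraries, fewer cells of a type and less RNA per cell cannot be told apart.

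Library W1 carried more transcript of 8 of the 14 receptors compared and of 4 of the 7 ligands compared. Library W2 carried far more of a pair of costimulatory ligands, Tnfsf9 and Cd70. Of the 45 members, 26 had a read in at least 1 library, and 21 reached 1 TPM in at least 1 library and were compared. The call required a 2-fold ratio on the TPM + 1 scale, which a gene at 1 TPM against 0 just reaches. On that rule 12 members were higher in W1, 5 were higher in W2 and 4 lay within 2-fold. Over all 12587 genes compared, 34.7% were higher in W1 and 32.9% in W2, 67.6% in either. The members' shares were 57.1% and 23.8%, and their median log2 ratio of W1 over W2 was 1.18 against -0.07 for all genes. Members are protein-coding by the rule, whereas all genes here include every annotated class. On protein-coding transcripts only, 28.5% and 34.2% of all genes were higher in W1 and W2 (median -0.26). At that setting 11 and 5 of 19 compared members were higher in W1 and W2 (median 1.18). By class, with all transcripts summed, 8 of 14 compared receptors were higher in W1 and 2 in W2 (median 1.11). Of 7 compared ligands, 4 were higher in W1 and 3 in W2 (median 1.18). Only 16 members had 20 reads or more in a library. Of these 16, 10 were higher in W1, 3 were higher in W2 and 3 lay within 2-fold, where 29.7% and 34.1% of all genes at that depth were higher in W1 and W2.

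**Figure D1:**
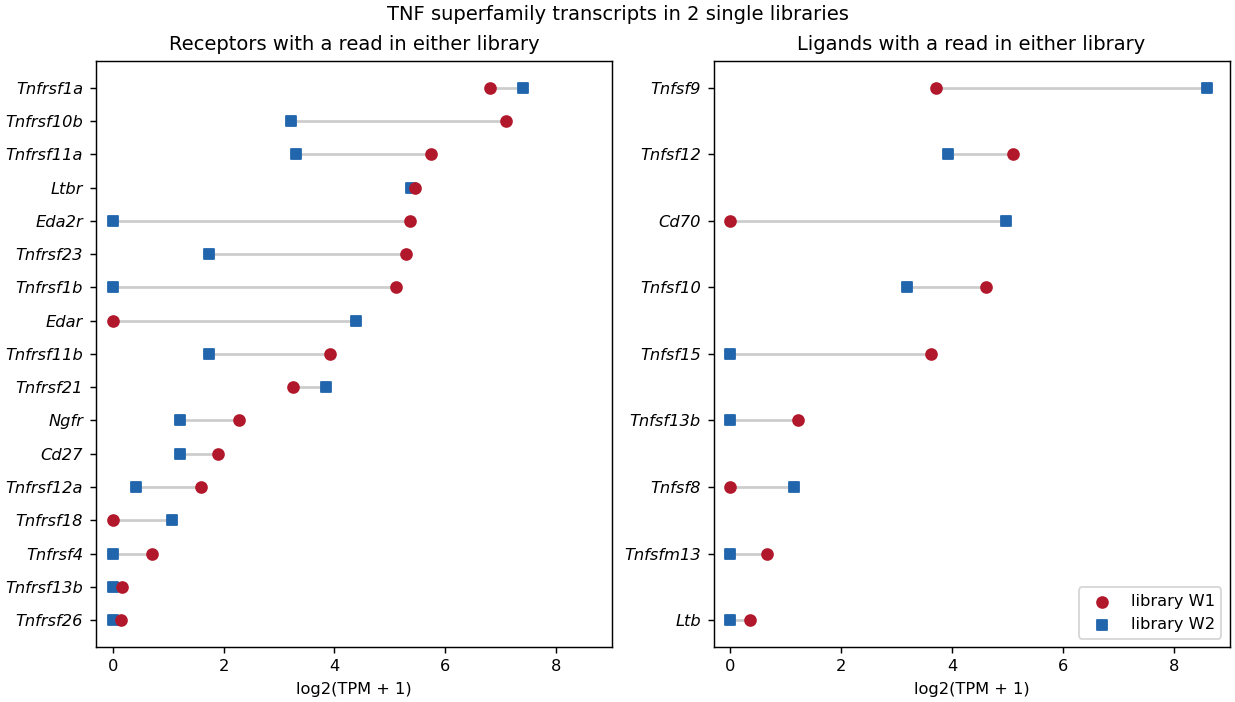
Level of each receptor (left) and ligand (right) with a read in either library, as log2(TPM + 1); circles are W1, squares W2, 1 library each, and grey lines join the same gene. Tnfsf9 stood at 386 TPM in W2 and 12.0 TPM in W1, while Tnfrsf1b and Eda2r stood at 0 in W2.

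**Figure D2:**
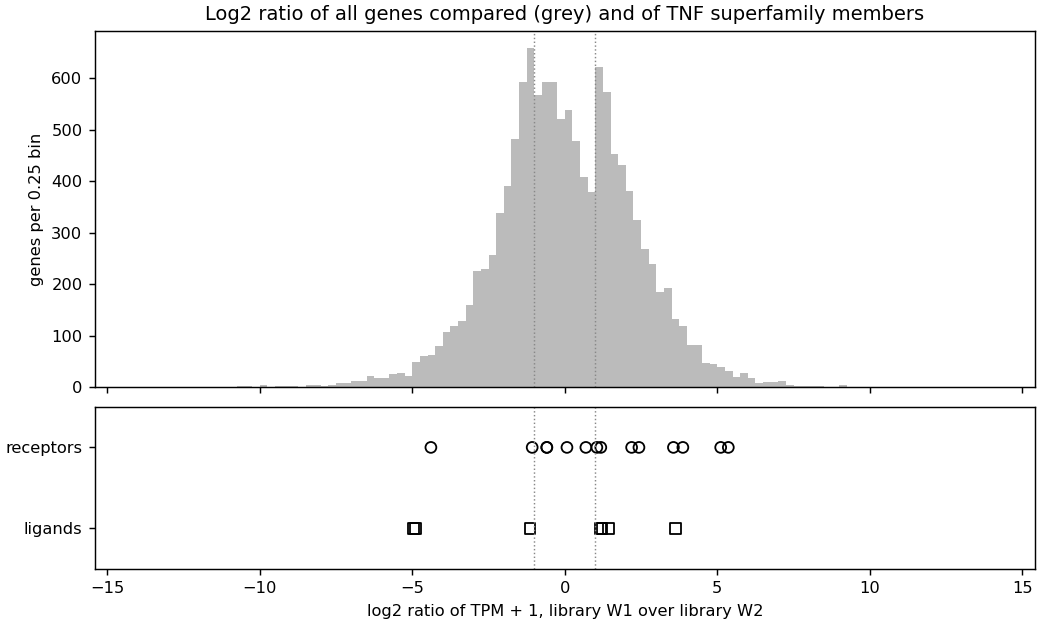
Histogram of the log2 ratio of TPM + 1, W1 over W2, for the 12587 genes compared (top), and the same ratio for the 21 compared members (bottom, circles receptors, squares ligands). Dotted lines mark 2-fold; 12 members lie to the right of the upper line and 5 to the left of the lower one.

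The members with 20 reads or more in 1 library and 0 in the other were Eda2r, Tnfrsf1b and Tnfsf15, read in W1, and Edar and Cd70, read in W2. The share of all genes with such counts was not computed, so the number of these members is not read as unusual. The bases upstream of the start sites of 4 of these members are shown because they were read in 1 library only (RefSeq, GRCm38.p6, 5′ to 3′ on the strand of the gene, ending before the RefSeq and the M21 start). Capitals mark a TATAAA motif.
Eda2r, chrX:97377217-97377459, minus strand: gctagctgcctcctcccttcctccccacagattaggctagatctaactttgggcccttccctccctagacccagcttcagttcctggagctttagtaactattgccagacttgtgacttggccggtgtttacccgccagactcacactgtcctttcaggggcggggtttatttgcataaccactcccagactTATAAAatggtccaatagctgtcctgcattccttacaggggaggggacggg
Tnfrsf1b, chr4:145246871-145247120, minus strand: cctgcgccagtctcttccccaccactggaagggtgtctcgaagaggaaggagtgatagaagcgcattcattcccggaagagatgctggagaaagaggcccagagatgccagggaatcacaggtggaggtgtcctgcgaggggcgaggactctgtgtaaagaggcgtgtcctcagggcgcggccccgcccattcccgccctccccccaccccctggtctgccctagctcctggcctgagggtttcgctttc
Tnfsf15, chr4:63745114-63745309, minus strand: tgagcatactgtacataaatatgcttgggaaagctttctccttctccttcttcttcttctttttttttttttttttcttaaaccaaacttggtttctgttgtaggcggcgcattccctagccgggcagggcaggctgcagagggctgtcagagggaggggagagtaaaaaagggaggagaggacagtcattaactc
Edar, chr10:58675697-58675946, minus strand: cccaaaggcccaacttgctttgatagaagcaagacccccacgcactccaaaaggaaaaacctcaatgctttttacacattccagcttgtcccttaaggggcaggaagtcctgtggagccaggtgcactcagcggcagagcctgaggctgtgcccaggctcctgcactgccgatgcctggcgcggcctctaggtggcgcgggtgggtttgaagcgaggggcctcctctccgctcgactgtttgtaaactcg
The stretches for Eda2r and Tnfsf15 held 4 and 3 CG dinucleotides in 243 and 196 bases, and those for Tnfrsf1b and Edar held 12 and 11 in 250 bases each. The letters of 3 motifs were searched on both strands of the 300-base windows from 250 bases before to 50 after a start: TATAAA, the AP-1 motif TGANTCA and the kappaB consensus of NF-kB. Of 45 members, 35 had an entry in the promoter table, with 39 windows. TATAAA was found in 7 of the 39 windows and in 13.6% of all 32851 windows. TGANTCA was found in 6 windows (7.81% of all windows) and the kappaB consensus in 3, those of Ltb, Tnfrsf8 and a start of Tnfrsf9 (4.51% of all windows). The 6 include both overlapping windows of Tnfsf13b, which may hold the same site. Of the printed stretches only that of Eda2r held any of the 3 motifs. Such a match is a description of letters and not of a bound site.

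Among the receptors of TNF itself, the widely expressed receptor gene was read in both libraries and its relative in W1 alone. Tnfrsf1a, which carries a death domain (chromosome 6, 125349362 to 125362484, plus strand, GRCm38), was at 110 TPM in W1 (721 reads) and 167 TPM in W2 (1078 reads). On its main transcript the level was 1.47-fold higher in W2 (exact 95% interval 1.34 to 1.62), an interval that covers counting error only, here and throughout. Tnfrsf1b, a receptor without a death domain that is typical of endothelial and immune cells (chromosome 4, 145213463 to 145246870, minus strand), was at 33.5 TPM in W1 from 387 reads, all on the protein-coding transcript. It had 0 reads in W2, which, taking 3 reads as the floor, makes W1 at least 130-fold higher. The libraries thus differed little in Tnfrsf1a and widely in Tnfrsf1b. Ltbr, the lymphotoxin beta receptor, differed least of all members with 20 reads or more, at 42.6 and 40.5 TPM from 272 and 260 reads (ratio 1.05, interval 0.885 to 1.25).

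The ligands of these 3 receptors were hardly read. Lta had 0 reads in both libraries, and Ltb had 1 read, in W1. Tnf also had 0 reads in both libraries. The 2 listed transcripts of Tnf each hold at most 226 stretches of 50 bases found in no other listed transcript (50-mers of its own). The protein-coding transcripts of Ltb hold at most 84. How shared reads were counted is not stated, and they may have been left out. The counts of Tnf and Ltb therefore do not show that either gene was silent or nearly so. Tnfsf14, another ligand of Ltbr, has 1 listed transcript with 1798 50-mers of its own and 0 reads in both libraries. For Tnfsf14 a count of 0 allows up to 0.536 TPM in W1 and 0.532 TPM in W2.

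Tnfrsf10b and Tnfrsf23, receptors of TRAIL, the death-inducing ligand encoded by Tnfsf10, were higher in W1. Tnfrsf10b, the death receptor for TRAIL in the mouse (chromosome 14, 69767472 to 69784411, plus strand), was at 136 TPM in W1 and 8.35 TPM in W2, from 1304 and 81 reads. It was the most read member in W1, and on its protein-coding transcript the level there was 15.6-fold higher (12.4 to 19.8). Tnfrsf23, a decoy receptor for TRAIL (chromosome 7, 143665809 to 143685872, minus strand), was at 38.3 and 2.34 TPM from 207 and 5 reads. All of the Tnfrsf23 reads lay on transcripts annotated as targets of nonsense-mediated decay (159 and 0 reads) or as retained introns (48 and 5 reads), and none on a protein-coding one. On the retained-intron transcript the level was 9.67-fold higher in W1 (3.87 to 31.1). Tnfrsf23 shares 719 50-mers with its neighbour Tnfrsf22. An antisense gene with 23 and 0 reads overlaps 164 of the exonic bases of Tnfrsf23, and reads within that overlap cannot be separated if strand was ignored. Tnfrsf22, the other decoy gene, had 0 reads in both libraries and at most 151 50-mers of its own in any transcript, and Tnfrsf26 had 1 read, in W1.

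Tnfsf10 (chromosome 3, 27317028 to 27342427, plus strand) was read from different transcripts in the 2 libraries. The long transcript, ENSMUST00000046383, took 329 of 334 reads in W1 (98.5%, exact 95% interval 96.5 to 99.5) and 2 of 26 reads in W2 (7.69%, 0.946 to 25.1). The short transcript, ENSMUST00000174840, took 5 reads in W1 and 24 in W2. The long form was thus 166-fold higher in W1 (45.5 to 1373), and the short form was 4.77-fold higher in W2 (1.78 to 16.0). The sum over both, 23.4 and 8.09 TPM, hides these opposite directions. The 2 coding sequences share 630 bases and then part, the long form reading on in its last exon and the short form joining an exon at chromosome 3, 27342155 to 27342427. The last 30 shared coding bases are shown in lower case, followed in capitals by the bases that follow the split (GENCODE M21), because these are the parts in which the forms differ.
Tnfsf10 long form, first 60 coding bases after the split: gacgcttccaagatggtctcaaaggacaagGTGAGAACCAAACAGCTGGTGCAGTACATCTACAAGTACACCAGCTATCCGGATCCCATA
Tnfsf10 short form, to its stop codon: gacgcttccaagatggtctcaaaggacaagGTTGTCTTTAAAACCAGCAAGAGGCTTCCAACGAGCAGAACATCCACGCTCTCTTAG
The long form encodes 291 residues and the short form 228, so that the short one lacks the end of the TNF homology domain, the part of a TNF ligand that forms trimers and meets the receptor. The long transcript has 4260 50-mers of its own and the short one 201, and reads from the shared part may not have been counted.

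**Figure D3:**
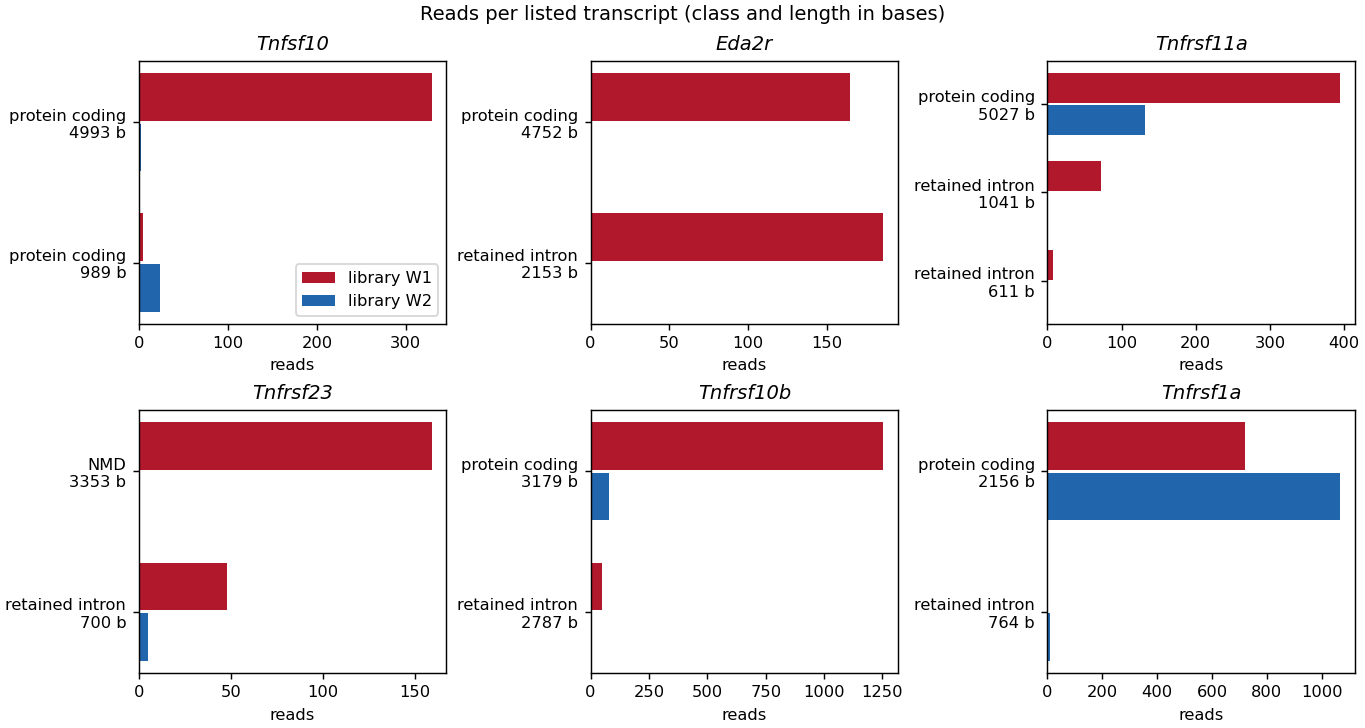
Reads per listed transcript in W1 (red) and W2 (blue) for 6 members with reads on several transcripts, labelled by annotation class and length in bases (NMD, nonsense-mediated decay); each panel has its own linear axis from 0. In Tnfsf10 the 4993-base transcript took 329 reads in W1 and the 989-base one took 24 in W2.

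RANK and its soluble decoy were both higher in W1, and their ligand was not read. Tnfrsf11a, which encodes RANK (chromosome 1, 105780718 to 105847981, plus strand), was at 52.5 TPM in W1 and 8.92 TPM in W2, from 474 and 133 reads. On the protein-coding transcript of Tnfrsf11a, with 395 and 132 reads, the level was 3.01-fold higher in W1 (2.47 to 3.70). A retained-intron transcript of 1041 bases took a further 72 reads in W1 and 1 in W2, and 16.7% of the reads of Tnfrsf11a in W1 (13.4 to 20.3) lay on retained introns. The gene sum therefore gives a larger ratio than the coding transcript does. Tnfrsf11b, which encodes osteoprotegerin, the secreted decoy for RANK ligand and TRAIL (chromosome 15, 54250619 to 54278484, minus strand), was at 14.2 and 2.33 TPM from 121 and 20 reads, 6.09-fold higher in W1 (3.78 to 10.3). Tnfsf11, which encodes RANK ligand and has 1 listed transcript with 2187 50-mers of its own, had 0 reads in both libraries, which allows up to 0.443 TPM in W1 and 0.440 TPM in W2.

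The receptors of ectodysplasin divided between the libraries. The ligand gene Eda gives rise by splicing to forms that prefer either Edar or Eda2r. Eda2r (chromosome X, 97333840 to 97377216, minus strand) was at 40.0 TPM in W1 from 351 reads, with 0 reads in W2. By reads summed over transcripts of unlike length, W1 was at least 118-fold higher. Of the 351 reads 165 lay on the protein-coding transcript and 186, or 53.0% (47.6 to 58.3), on a retained-intron transcript. On the coding transcript alone the difference was at least 55.4-fold. Edar, which carries a death domain (chromosome 10, 58600789 to 58675654, minus strand), had the opposite distribution, with 0 reads in W1 and 19.9 TPM in W2 from 221 reads, at least 73.2-fold higher there. Edar has 1 listed transcript. Eda had 0 reads in both libraries over its 12 listed transcripts, and Edaradd, the adaptor of Edar, had 6 reads in W1 and 0 in W2.

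Tnfrsf21 and Ngfr, which also carry a death domain, were read in both libraries. Tnfrsf21, death receptor 6 (chromosome 17, 43016555 to 43089189, plus strand), was at 8.48 and 13.3 TPM from 92 and 147 reads, and its coding transcript was 1.60-fold higher in W2 (1.23 to 2.11), within the 2-fold rule. Ngfr, the low-affinity neurotrophin receptor, often used as a basal cell marker (chromosome 11, 95568818 to 95587735, minus strand), was at 3.83 and 1.33 TPM from 40 and 14 reads. Its level was 2.88-fold higher in W1 (1.53 to 5.72), and the ratio on the TPM + 1 scale only just passed 2-fold (log2 1.05).

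The remaining receptors were near or at the limit of counting. Cd27, the receptor of Cd70 on lymphocytes, had 13 reads in W1 on its protein-coding transcript and 3 in W2 on a retained-intron one. Tnfrsf12a, the receptor of Tnfsf12, had 6 and 1 reads, and its coding transcript has only 87 50-mers of its own. Tnfrsf18, a costimulatory receptor of T cells, had 0 and 4 reads and overlaps an antisense gene with 0 and 189 reads, and Tnfrsf4 and Tnfrsf13b had 2 and 1 reads in W1. The coding transcripts read in Tnfrsf18 and Tnfrsf4 hold only 168 and 74 50-mers of their own, so low counts there say little. The counts of these receptors carry no more than that few reads were counted, although Tnfrsf12a and Tnfrsf18 pass the 2-fold rule.

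Among the ligands, Tnfsf9 and Cd70 were higher in W2. Tnfsf9, which encodes a ligand of the T cell costimulatory receptor Tnfrsf9 (chromosome 17, 57105325 to 57107757, plus strand), was at 12.0 TPM in W1 from 47 reads and 386 TPM in W2 from 1519 reads. The level was 32.1-fold higher in W2 (24.0 to 43.9). Without Tnfsf9 the ligands summed to 70.3 and 53.8 TPM in W1 and W2, and with it to 82.3 and 440 TPM. Tnfsf9 has 1 listed transcript, and a long noncoding gene on the opposite strand, Gm11110, overlaps 192 of its bases and had 4 and 186 reads, so that some reads could belong to either gene if strand was not used. Its receptor gene Tnfrsf9 had 0 reads in both libraries, but its 9 transcripts hold at most 149 50-mers of their own each. Cd70, the ligand of Cd27 (chromosome 17, 57145997 to 57149777, minus strand), lies next to Tnfsf9 and had 0 reads in W1 and 78 in W2 (30.4 TPM), at least 25.8-fold higher there.

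Besides Tnfsf10, the ligands Tnfsf15, Tnfsf12 and Tnfsf13b were higher in W1. Tnfsf15, a cytokine that endothelial cells are known to make (chromosome 4, 63727084 to 63745113, minus strand), was at 11.3 TPM from 115 reads in W1 with 0 reads in W2, at least 38.6-fold higher. Its known receptor gene Tnfrsf25 had 0 reads in both libraries. Tnfsf12, the cytokine TWEAK (chromosome 11, 69686250 to 69695849, minus strand), was at 33.3 and 14.2 TPM from 145 and 62 reads, 2.35-fold higher in W1 (1.74 to 3.22). It was the only ligand other than Tnfsf9 and Tnfsf10 read in both libraries. It has 707 50-mers of its own and shares 679 with Tnfsfm13, a readthrough gene that joins Tnfsf12 to Tnfsf13 and had 4 and 0 reads. Tnfsf13b, the B cell survival factor BAFF, had 9 reads in W1, all on a retained intron, and Tnfsf8, the ligand of Tnfrsf8, had 14 reads in W2. Each of these had 0 reads in the other library.

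**Figure D4:**
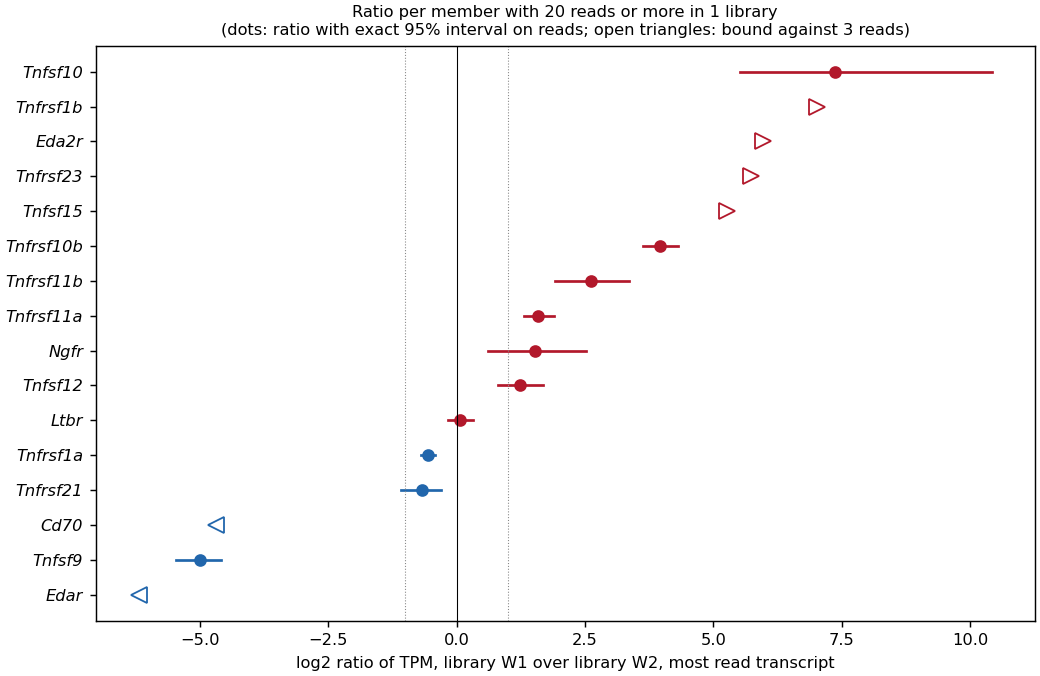
Log2 ratio of TPM, W1 over W2, on the most read transcript of the 16 members with 20 reads or more in 1 library; dots with lines give the ratio and its exact 95% interval on reads, and open triangles give the bound where the other library had 0 reads (floor of 3 reads). The values of Ltbr, Tnfrsf1a and Tnfrsf21 lie closest to 0, and the Ltbr interval is the only one that includes it. Reads here are those of the drawn transcript, a retained intron in Eda2r and a decay target in Tnfrsf23, whose gene had 5 reads in W2. Tnfsf10 is drawn on its long form, and its short form went the other way.

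Members at 0 reads in both libraries numbered 19, or 42.2% of the family, beside 51.8% of the 21939 protein-coding genes listed. Of these 19, 7 have a single listed transcript with 766 to 2187 50-mers of its own: Cd40lg, Lta, Tnfrsf17, Tnfsf4, Tnfsf11, Tnfsf14 and Tnfsf18. For these 7 the floor of 3 reads lies between 0.440 and 1.21 TPM, and they were not detected at this depth. Cd40 and Fasl have several transcripts, of which a protein-coding one holds 1282 and 1560 50-mers of its own. In Eda only a retained-intron transcript holds over 500 (1198), and its protein-coding ones hold at most 59. The other 9 (Tnf, Tnfrsf8, Tnfrsf9, Tnfrsf13c, Tnfrsf14, Tnfrsf19, Tnfrsf22, Tnfrsf25 and Tnfsf13) hold at most 423 in any transcript. Across all 145 member transcripts, 25 of 37 with over 500 such 50-mers had a read, as did 10 of 92 with fewer and 0 of 16 with none. The tally includes the transcripts of these 9 genes and of Eda themselves, so it cannot show how shared reads were counted. Because that is not stated and these genes hold few 50-mers of their own, their level of 0 says little.

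Many members lie beside each other in the genome, and the neighbours did not all go the same way. Within 500 kb of another member lay 24 of the 45 genes, in 9 groups. On chromosome 17, Tnfsf9 and Cd70, 38.2 kb apart, were both higher in W2, and Tnfsf14, a further 39.7 kb on, had 0 reads. On chromosome 4, Tnfsf15 (115 and 0 reads) and Tnfsf8 (0 and 14 reads), 86.2 kb apart, were each read in a different library. Tnfrsf1b and Tnfrsf8, 20.3 kb apart on the same chromosome, differed in that Tnfrsf8 was at 0 in both libraries. The group of Cd27, Ltbr and Tnfrsf1a on chromosome 6 was the only one whose 3 members were all read in both libraries. All 3 lay within 2-fold on the TPM + 1 scale, Cd27 from 13 and 3 reads on different transcripts. No read fell on the 3 ligand genes Tnfsf4, Tnfsf18 and Fasl on chromosome 1.

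**Figure D5:**
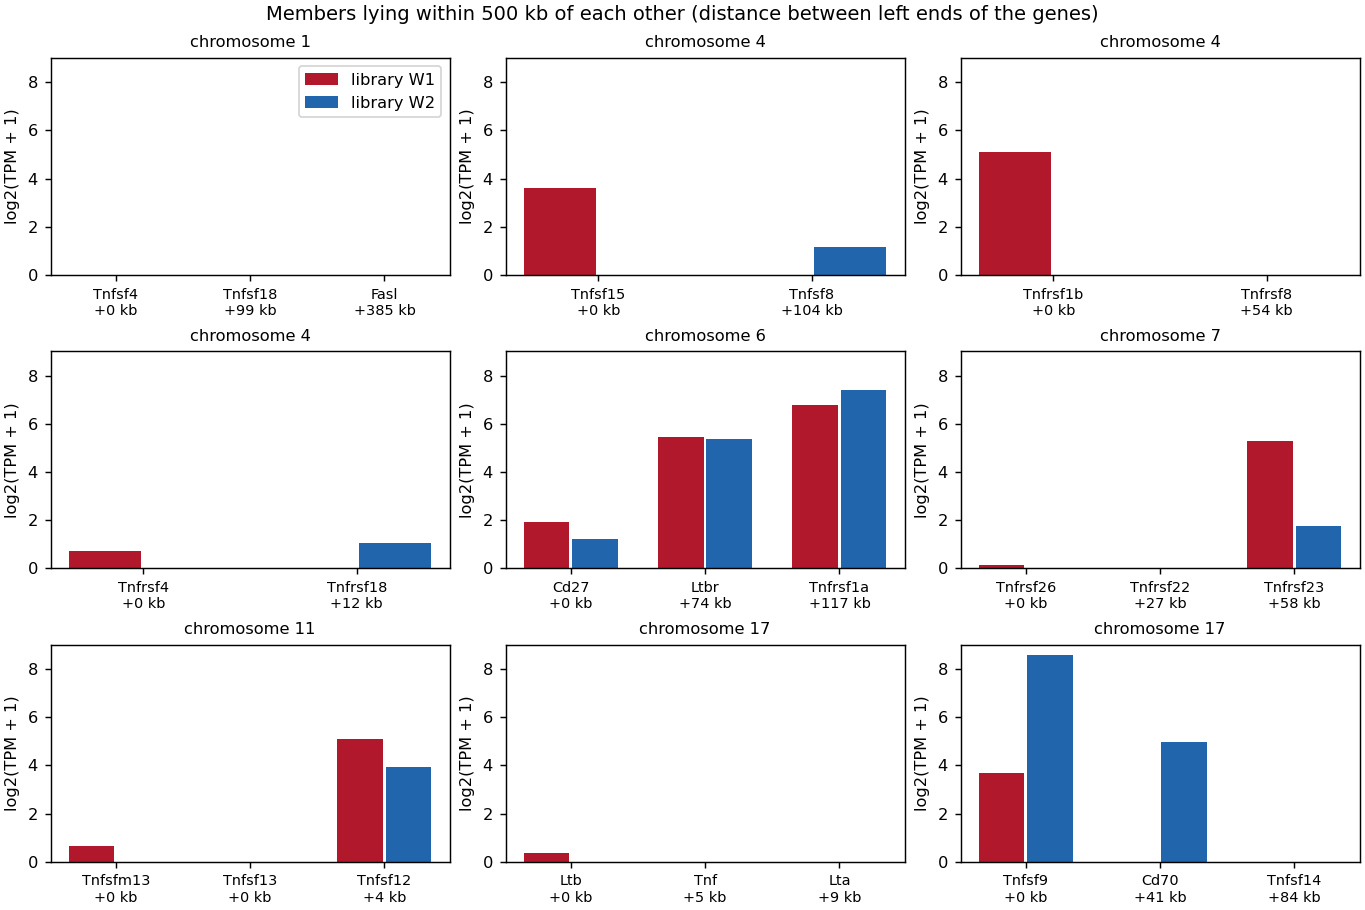
Level, as log2(TPM + 1), of members that lie within 500 kb of each other, 1 panel per group, in W1 (red) and W2 (blue); the axis labels give the distance of each gene's left end from that of the leftmost member. On chromosome 17 Tnfsf9 and Cd70 are high in W2, and on chromosome 6 Ltbr and Tnfrsf1a have bars of like height in both libraries.

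Downstream of the receptors, adaptors and kinases were more often higher in W1 when all transcripts were summed, although many of their reads lay on noncoding transcripts. Of 33 listed genes, 22 were compared, 11 were higher in W1, 2 in W2 and 9 lay within 2-fold (median log2 ratio 1.06, all genes -0.07). With protein-coding transcripts only, 14 were compared, of which 5 were higher in W1 and 1 in W2, beside 28.5% and 34.2% of all genes. Traf1, an adaptor that NF-kB induces, had 370 and 42 reads, of which only 20 and 0 were on coding transcripts. Birc2, a ubiquitin ligase of the TNF receptor complex, had 101 and 3 reads and Ikbkb, a kinase of the NF-kB pathway, had 221 and 3, all on noncoding transcripts. Tnfaip3, the deubiquitinase that restrains NF-kB, had 83 and 0 reads, 3 of them on a coding transcript. Tab3, a partner of the kinase Tak1, was 13.5-fold higher in W1 on its coding transcript (8.25 to 23.6), at 11.8 and 0.876 TPM. Ripk1, the kinase recruited by death receptors, had 77 and 41 coding reads among its 153 and 53. Tradd, the death domain adaptor of Tnfrsf1a, went the other way, 3.63-fold higher in W2 (2.19 to 6.28), at 3.91 and 14.2 TPM. Traf2, Traf5 and Traf6 lay within 2-fold, at 39 and 37, 22 and 27, and 168 and 130 reads.

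Of 12 compared genes in a list of 19 for death receptor signalling, 5 were higher in W1 (41.7%) and 4 in W2 (33.3%), with a median of 0.34. These shares lie near the 34.7% and 32.9% of all genes. Cflar, the inhibitor of caspase 8 at death receptors, stood at 99.4 and 14.1 TPM, a 7.03-fold ratio. By reads summed over its 13 listed transcripts Cflar was 3.57-fold higher in W1 (3.09 to 4.14), an interval for the reads and not for the TPM ratio. Tnfaip8l1, with 1278 and 1 reads, had the largest ratio of this list on the TPM + 1 scale. Toward W2, Fadd, the adaptor of Fas and of the TRAIL receptor, stood at 0.169 and 7.39 TPM, 43.7-fold higher (11.7 to 367). Fas itself stood at 18.2 and 111 TPM. Ptpn13, a phosphatase that binds Fas, had 0 and 441 reads, by reads at least 146-fold higher in W2, and Tnfaip8 had 13 and 107. Casp8 had 0 and 3 reads over 4 transcripts, too few to compare. The TRAIL receptor and its adaptor thus lay on opposite sides, with Tnfrsf10b higher in W1 and Fadd in W2.

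A list of 17 genes for ligand shedding and partner proteins also holds some TNF-induced genes and Relt. Of its 8 compared genes, 4 were higher in each library (median -0.18), beside 34.7% in W1 and 32.9% in W2 over all genes. With protein-coding transcripts only, 3 of 7 compared genes of the list were higher in W1 and 4 in W2 (median -2.14). At that setting 28.5% and 34.2% of all genes were higher in W1 and W2 (median -0.26). Adam10, a protease that sheds several members of the family, stood at 44.8 and 11.1 TPM, 4.02-fold higher in W1 (3.37 to 4.82). Tnfaip2, a TNF-induced gene, had 378 and 0 reads, by reads at least 127-fold higher in W1. Tnfaip6, a secreted hyaluronan-binding protein induced by TNF, was 6.53-fold higher in W2 (5.73 to 7.48), at 49.4 and 323 TPM. Relt, a receptor of the family that escapes the symbol rule, was higher in W2 at 3.59 and 19.2 TPM, and so was the neurotrophin gene Bdnf (0 and 67 reads).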

How the data were processed

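Bowtie 0.12.2 and the builds mm8 and GRCm38 stand in the submitters' processing notes, which assign the builds no role. What counted the reads, on which annotation and with or without strand, is not stated in the sources used. The authors deposited TPM and FPKM for 137767 Ensembl transcripts, of which 137654 matched GENCODE M21 (GRCm38), which may not be their annotation. Gene values are sums over listed transcripts. Reads were recovered from the deposited FPKM, which times transcript length falls on whole multiples of a step per library (98.47% and 98.02% of transcripts above 0 within 0.1 read in W1 and W2). Reads of genes whose annotated length differs, such as Fas, are approximate. Isoforms that share sequence may have been undercounted, which is inferred from the values only and was not tested. A higher TPM of 1 gene than of another is therefore not read as an order.

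The statistic was the log2 ratio of TPM + 1, W1 over W2, with no test, since each title has 1 library and the labels give no group. At low levels it gives too small a ratio. Comparison required 1 TPM in at least 1 library, and calls required 2-fold. Ratios of reads, scaled to TPM, carry exact Clopper-Pearson 95% intervals. A library with 0 reads was given a floor of 3 reads per gene. The intervals and these bounds cover counting error of the reads only, because no replicate exists. Where reads were summed over transcripts of unlike length, a ratio or bound of reads can differ from that of TPM. The reads carry no molecular identifiers, so copies of 1 molecule were not told apart and the true counting error may be larger. Own 50-mers were counted on the forward strand over all listed transcripts. Every member with 20 reads or more in a library is named with its values. Of each pathway list, called genes with 50 reads or more are named, at most 8 by size of ratio, except a few that are not reported here. Other members and pathway genes given (those under these limits, and Traf2, Traf5, Traf6, Casp8 and Edaradd) were chosen after their values were seen, as was the choice of motifs. Members, lists and rules were chosen with earlier results of these data known. Recovery of reads from FPKM and the 2-fold rule were run on simulated libraries in which every read was counted on its transcript. The floor, the intervals, the 50-mer counts and the motif search were not tested in this way. Computation used Python 3.11.15 with scipy 1.17.1, numpy 2.4.6 and pandas 2.3.3; plots used matplotlib 3.10.9. Protein sequences were not used here.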

Additional observations from a re-analysis of the deposited data

How the results depend on the processing

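Each member's call was recomputed under 8 listed alternatives and under 1 more, protein-coding transcripts only, chosen after seeing the data. Of the 16 members with 20 reads or more, 13 kept their call under the 2-fold rule in all 9, although Ltbr, within 2-fold throughout, changed sign without mitochondrial and ribosomal protein genes (log2 ratio 0.07 against -0.21). Ngfr left it with a pseudocount of 5 (log2 ratio 0.48) and without mitochondrial and ribosomal protein genes (0.9). Tnfsf12 left it under the latter (0.91), and Tnfrsf23 had no reads on coding transcripts (0). With a pseudocount of 5, members higher in libraries W1 and W2 numbered 9 and 3, and receptors higher in library W2 numbered 1. Genes higher in library W1 numbered 3 in the death receptor list and 2 in the shedding and partner list. Over all genes that setting lowered the shares to 16.8% in W1 and 19.9% in W2. With 20 reads or more required, members higher in library W2 numbered 3, receptors 1 and adaptors 1, and death receptor genes higher in library W1 numbered 3. The shares of all genes were then 29.6% in W1 and 34% in W2. With FPKM in place of TPM, members higher in library W2 numbered 3 and receptors 1, beside 37.8% and 28.1% of all genes higher in W1 and W2. Without mitochondrial and ribosomal protein genes, adaptors higher in library W2 numbered 4, beside 33.2% and 37.6% of all genes higher in W1 and W2. That scaling moved the median of all genes to -0.31, and FPKM moved it to 0.23. With protein-coding transcripts only, adaptors higher in libraries W1 and W2 numbered 5 and 1, beside 28.5% and 34.2% of all genes. The members' median was 1.46 with a pseudocount of 0.1, 0.39 with 5, 0.7 without a filter, 1.3 with 20 reads or more and 0.91 without mitochondrial and ribosomal protein genes. The ligands' median ranged from 0.02 to 1.34, that of the death receptor list from -0.2 to 0.61, and that of the shedding and partner list from -2.14, with protein-coding transcripts only, to 0.0. The cause was not tested beyond what each setting does by construction. No replicate could be left out, and no paired analysis was possible because each title has 1 library.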
